A study of Homo sapiens with 4 samples.

Results

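The neutrophil chemokines of chromosome 4 are 9 genes in 1 cluster: CXCL1, CXCL2, CXCL3, CXCL5, CXCL6, CXCL8, PF4, PF4V1 and PPBP. They were chosen by symbol, as the CXC chemokines that carry the residues Glu-Leu-Arg (ELR) before the first paired cysteines, together with the platelet members of the same cluster. All 9 were found among the 61533 gene identifiers of the count table. The choice was made with the change between the arms already known, so the members' own values are given as a description; the calls the fit gives them are printed for completeness and are no independent test.

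The libraries came from Caki-1, an established human renal cell carcinoma line, infected with lentivirus that carried a control sequence (shControl, genotype label WT) or hairpin RNA against the transcription factor TFE3 (shTFE3, genotype label TFE3-KD). All cells were split 24 hours after infection, received puromycin at 1 µg/ml another 12 hours later and were harvested after 3 days in the drug, so the control cells also carried a virus and were selected. Polyadenylated RNA was read as pairs of 150 bases, with 2 libraries in each arm. The number of hairpins, and whether the replicates were separate infections, is not given in the sources used here, so the spread between libraries may be technical. The libraries totalled 17270180 to 17742519 counts, and TFE3 itself went from 2231 and 2179 counts in shControl to 1259 and 1190 in shTFE3, a log2 fold change of -0.92 (SE 0.062). Among markers of the cell line, PAX8, KRT8, KRT18, MET and vimentin (VIM) were abundant, while PAX2 and CA9 had 0 counts and KRT19 at most 2.

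ELR chemokines are small secreted proteins that bind the receptors CXCR1 and CXCR2 and draw neutrophils into inflamed tissue. Epithelial cells make them after interleukin 1, tumour necrosis factor or bacterial products, mainly through NF-kB at a short element close to the start of each gene, and their mRNAs are short-lived because AU-rich stretches at the 3' end recruit decay factors. PF4, its close copy PF4V1 and PPBP are stored in platelet granules and are made by megakaryocytes. PPBP carries the ELR residues, while PF4 and PF4V1 do not.

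The codons in front of the first cysteine pair show what defines the group. Each line gives 30 bases of the coding sequence in GENCODE release 29, with the 3 codons just before the first cysteine in capitals; CXCL8 and CXCL6 stand for the ELR members, PPBP for the platelet member that shares the residues, and PF4 for those that lack them.
CXCL8: aggagtgctaaaGAACTTAGAtgtcagtgc
CXCL6: gctgtgctgacaGAGCTGCGTtgcacttgt
PPBP: gacttgtatgctGAACTCCGCtgcatgtgt
PF4: gaagaagatgggGACCTGCAGtgcctgtgt
The capitals encode Glu-Leu-Arg in CXCL1, CXCL2, CXCL3, CXCL5, CXCL6, CXCL8 and PPBP, and other residues in PF4 and PF4V1.

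The promoters of the members that were expressed hold a common element. RefSeq windows on GRCh38.p14 were at hand for 8 of the 9 members, all but PF4, and the 250 bases before each start were searched on both strands. The 9 letters GGAATTTCC, picked after these sequences had been seen, stood in 6 of the 8 windows (CXCL1, CXCL2, CXCL3, CXCL5, CXCL6 and CXCL8), always on the strand of the gene, and in 0.413% of the 35116 promoter windows searched. Each line below gives 70 bases on the strand of the gene, with those 9 letters in capitals, to show the element and how far its surroundings are shared.
CXCL8: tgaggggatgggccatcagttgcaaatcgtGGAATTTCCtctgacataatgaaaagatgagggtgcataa
CXCL6: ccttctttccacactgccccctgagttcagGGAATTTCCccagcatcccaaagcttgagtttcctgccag
CXCL5: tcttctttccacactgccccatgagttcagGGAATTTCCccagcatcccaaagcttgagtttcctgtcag
CXCL1: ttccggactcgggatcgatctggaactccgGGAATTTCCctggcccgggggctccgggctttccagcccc
CXCL3: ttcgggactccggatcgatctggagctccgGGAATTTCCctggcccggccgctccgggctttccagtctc
CXCL2: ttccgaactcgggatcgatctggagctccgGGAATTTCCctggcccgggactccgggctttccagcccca

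These stretches lie at chr4:73740448-73740517 on the plus strand for CXCL8, chr4:73836559-73836628 (plus) for CXCL6, chr4:73998728-73998797 (minus) for CXCL5, chr4:73869285-73869354 (plus) for CXCL1, chr4:74038728-74038797 (minus) for CXCL3 and chr4:74099233-74099302 (minus) for CXCL2. Counted from the RefSeq start, the element ran from base -91 to -83 in CXCL8, -89 to -81 in CXCL6, -90 to -82 in CXCL5, -78 to -70 in CXCL1 and CXCL3, and -77 to -69 in CXCL2. The CXCL5 and CXCL6 stretches were identical at 67 of 70 bases and those of CXCL1 and CXCL3 at 63 of 70, while CXCL8 shared at most 26 of 70 with any of the others. The longer NF-kB consensus was found in 5 of the 8 windows, all of these but CXCL8, against 9.96% of all promoters; its match overlaps the 9 letters in each of the 5.

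Other motifs were less widely shared. The AP-1 letters TGANTCA were found in CXCL8 alone (base -137 to -131), against 6.57% of all promoters. The C/EBP letters TTNNGNAA were found in PF4V1, PPBP and CXCL2, against 33.2%, and the TATA letters TATAAA in CXCL8, PF4V1 and PPBP, against 10.7%. The letters CACGTG, the core of the sites that TFE3 and its relatives bind, stood in 0 of the 8 windows and in 6.34% of all promoters. For each motif, absence says only that its letters are not in these 250 bases, since sites spelled otherwise were not searched for.

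All 6 ELR chemokines that the cells expressed were higher in both shTFE3 libraries than in both shControl libraries. In a bulk library, more expressing cells and more RNA per cell cannot be told apart. Together the 9 members took 5719 and 5659 counts in shControl, against 21514 and 21447 in shTFE3, which is 0.0330% and 0.0328% of each control library's total, against 0.121% and 0.122% for the knockdown. In CPM (counts relative to library size, scaled with TMM factors) the sum went from 334 ± 2.19 to 1201 ± 5.82 (SD, n = 2), a ratio of 3.60. The replicates of an arm lay close together and the arms far apart.

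CXCL8, interleukin 8, the broadest neutrophil attractant of the family, had 114 and 133 counts in shControl, against 727 and 746 in shTFE3. Both knockdown libraries lay far above both controls, and the log2 fold change of 2.51 (SE 0.104, 95% interval 2.29 to 2.72) was the largest among the members. Its level went from 7.25 ± 0.79 to 41.2 ± 1.04 CPM (SD, n = 2), a fold of 5.68.

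CXCL6, granulocyte chemotactic protein 2, had 1061 and 1104 counts in shControl, against 5927 and 5587 in shTFE3. The arms did not overlap, and the log2 fold change was 2.34 (SE 0.061, 95% interval 2.22 to 2.47), an interval that overlaps that of CXCL8. Its level went from 63.5 ± 1.84 to 322 ± 11.2 CPM (SD, n = 2).

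CXCL1, also called GRO alpha, was the most abundant member in every library, with 2866 and 2670 counts in shControl, against 10395 and 10802 in shTFE3. In CPM this was 162 ± 7.98 against 593 ± 20.3 (SD, n = 2). The log2 fold change was 1.87 (SE 0.058, 95% interval 1.75 to 1.99), an interval below those of CXCL8 and CXCL6 and above those of the other 3 measured members.

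CXCL5, known as ENA-78, had 1359 and 1408 counts in shControl, against 3681 and 3415 in shTFE3, from 81.2 ± 2.11 to 198 ± 9.12 CPM (SD, n = 2). The log2 fold change was 1.29 (SE 0.061, 95% interval 1.16 to 1.42). CXCL5 is the nearest relative of CXCL6, and in both control libraries it stood above CXCL6 in counts while in both knockdown libraries it stood below. The count ratio of CXCL6 to CXCL5 was 0.781 and 0.784 in shControl against 1.61 and 1.64 in shTFE3.

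CXCL2 and CXCL3, GRO beta and gamma, are the closest copies of CXCL1. CXCL2 had 271 and 300 counts in shControl, against 671 and 781 in shTFE3, a log2 fold change of 1.28 (SE 0.096, 95% interval 1.08 to 1.47). CXCL3, the least abundant of the measured members, had 47 and 44 counts in shControl, against 113 and 115 in shTFE3, a log2 fold change of 1.25 (SE 0.179, 95% interval 0.89 to 1.62). The arms did not overlap for either gene, and the intervals of CXCL2, CXCL3 and CXCL5 overlap one another. The count ratio of CXCL2 to CXCL3 was 5.77 and 6.82 in shControl, against 5.94 and 6.79 in shTFE3, so the replicates of an arm differed more than the arms did. The ratio of CXCL1 to CXCL2 went from 10.6 and 8.90 to 15.5 and 13.8.

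**Figure D1:**
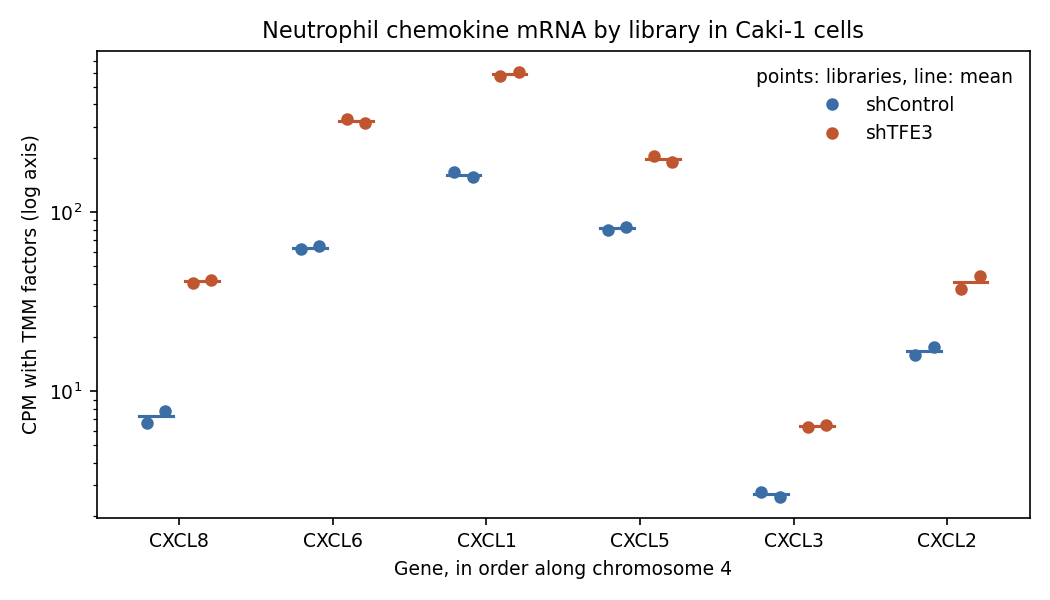
CPM of the 6 measured chemokines on a log axis, with each library as a point and each arm's mean as a line, shControl in blue and shTFE3 in orange. For each gene both shTFE3 libraries sit above both shControl libraries, from CXCL3 at 2.67 against 6.38 CPM to CXCL1 at 162 against 593 CPM; PF4, PF4V1 and PPBP are not drawn.

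The platelet members were not detectable. PF4 and PF4V1 had 0 counts in all 4 libraries, which allows at most 0.169 to 0.174 CPM per library (3 counts, for counting error only). PPBP had 1 and 0 counts in shControl, against 0 and 1 in shTFE3. These 3 genes did not pass the filter on low counts and have no fold change. The cells thus had mRNA of 6 of the 7 ELR genes above that limit, while the other ELR gene, PPBP, stayed under it in both arms.

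The 6 members that passed the filter were all called higher by edgeR (adjusted p under 0.05), and all 6 were at least 2-fold higher. Of the 15950 genes tested, 10.3% were called higher and 0.991% were called and at least 2-fold higher; both shTFE3 libraries exceeded both shControl libraries for 29.8%, and the arms did not overlap in either direction for 60.3%. Since this contrast was known when the members were chosen, nothing is read from the count. Ranked from the largest rise among the 10914 genes averaging 100 counts or more, CXCL8 stood at 1, CXCL6 at 2, CXCL1 at 5, CXCL5 at 12 and CXCL2 at 15; CXCL3 averaged fewer counts and has no place in that ranking. Over all 15950 genes tested the places were 6 for CXCL8, 10 for CXCL6, 23 for CXCL1, 91 for CXCL5, 99 for CXCL2 and 107 for CXCL3. The authors' deposited table of 546 changed genes lists the same 6 members as up, with the authors' log2 fold changes of 2.51 for CXCL8, 2.34 for CXCL6, 1.87 for CXCL1, 1.29 for CXCL5, 1.28 for CXCL2 and 1.26 for CXCL3.

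Levels of different genes were compared per length, as CPM per kilobase (RPKM), with the feature lengths of the authors' deposited table (1362 bases for CXCL1 to 2436 for CXCL5). In shControl the order was CXCL1 at 119 ± 5.86 RPKM, CXCL5 at 33.3 ± 0.865, CXCL6 at 31.1 ± 0.903, CXCL2 at 12.0 ± 0.871, CXCL8 at 3.24 ± 0.355 and CXCL3 at 1.20 ± 0.055 (SD, n = 2). CXCL5 and CXCL6 were the closest neighbours, with 32.7 and 33.9 RPKM against 30.5 and 31.8, while the other neighbours were several SDs apart. In shTFE3 the order was CXCL1 at 435 ± 14.9 RPKM, CXCL6 at 158 ± 5.48, CXCL5 at 81.4 ± 3.74, CXCL2 at 29.1 ± 3.32, CXCL8 at 18.4 ± 0.465 and CXCL3 at 2.87 ± 0.056 (SD, n = 2). By these lengths CXCL6 and CXCL5 changed places, and the other ranks were the same in both arms. With GENCODE release 29 exon lengths CXCL5 was again above CXCL6 in shControl, at 32.0 against 29.1 RPKM. That order rests on the length chosen: the shorter single transcript used for CXCL6 below would put it above CXCL5 in shControl too. CXCL8 had the largest fold, yet only CXCL3 was lower in level.

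The make-up of the chemokine counts differed between the arms. CXCL6 took 18.6% (exact 95% interval 17.6 to 19.6) and 19.5% (18.5 to 20.6) of the members' counts in shControl, against 27.5% (27.0 to 28.2) and 26.1% (25.5 to 26.6) in shTFE3. CXCL5 went the other way, from 23.8% and 24.9% to 17.1% and 15.9%. CXCL8 took 1.99% and 2.35% in shControl, against 3.38% and 3.48% in shTFE3. CXCL1 kept close to the same share, 50.1% and 47.2% against 48.3% and 50.4%, with the arms overlapping. These Clopper-Pearson intervals cover counting error only, and the shares are of read counts, not of molecules. Of the CPM that the members gained between the arms, CXCL1 accounted for 49.6%, CXCL6 for 29.8%, CXCL5 for 13.5%, CXCL8 for 3.91%, CXCL2 for 2.75% and CXCL3 for 0.427%.

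**Figure D2:**
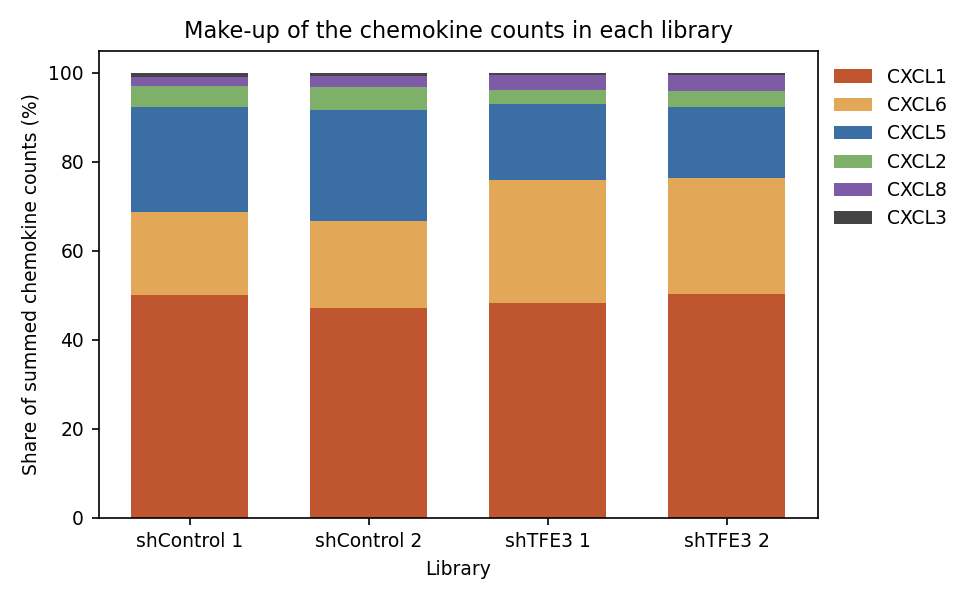
Stacked bars give each member's share, in percent, of the summed chemokine counts in each of the 4 libraries. The CXCL6 band is wider in the 2 shTFE3 libraries (27.5% and 26.1%) than in the 2 shControl libraries (18.6% and 19.5%), the CXCL5 band is narrower, and CXCL1 fills between 47.2% and 50.4% throughout.

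Similar copies can trade reads, so the likeness of the members was measured. By global alignment, coding sequences were 94.4% identical between CXCL2 and CXCL3, 93.5% between CXCL1 and CXCL2, 90.7% between CXCL1 and CXCL3 and between PF4 and PF4V1, and 87.4% between CXCL5 and CXCL6; the next pair, CXCL1 and CXCL5, had 61.2%. In the GENCODE release 29 transcript used for each gene, 0 windows of 150 bases, the length of a read, were found without mismatch in a transcript of another member. At 50 bases, shared windows made up 5.73% of CXCL1, 9.24% of CXCL2 and 5.26% of CXCL3, and 0% of CXCL5, CXCL6 and CXCL8. How the authors' counting treated reads that match several genes is not given in the sources used here, so the separate levels of CXCL1, CXCL2 and CXCL3 keep some uncertainty. With these 3 summed to 1 gene the log2 fold change was 1.82 (SE 0.057), and with CXCL5 and CXCL6 summed it was 1.85 (SE 0.057).

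The 3' ends of the expressed members are rich in AU pentamers. In the annotated 3' untranslated regions, the letters ATTTA occurred 5 times in CXCL1, 10 in CXCL2, 7 in CXCL3, 11 in CXCL5, 6 in CXCL6 and 9 in CXCL8, counted on the transcript strand with overlaps. Per kilobase this was 7.08, 13.9, 10.4, 5.51, 5.36 and 7.19, against a median of 1.73 over the 12710 tested genes with such a region. Each of the 6 exceeded at least 92.8% of those genes. The letters TTATTTATT, which contain the pentamer, were found in CXCL1, CXCL2, CXCL3 and CXCL8, not in CXCL5 or CXCL6, and in 9.58% of those genes. The 30 bases with the most pentamers, in capitals, are given for 2 members with TTATTTATT and 1 without it. In CXCL8 the TTATTTATT lies outside the bases printed.
CXCL8: cctATTTAttATTTAtgtATTTATTTAagc
CXCL2: cttctATTTATTTATTTATTTATTTAtttg
CXCL5: tgaatataaATTTAtcATTTAgttataaaa
CXCL2 and CXCL3, the densest of the 6, had the smallest folds, 2.42 and 2.38, with intervals that overlap that of CXCL5. CXCL8 and CXCL1, next in density at 7.19 and 7.08 per kilobase, had folds of 5.68 and 3.65. CXCL6 had the lowest density of the 6 and the second largest fold, while CXCL5, the next lowest in density, had a fold of 2.44. The part of AU-rich decay in the change was not tested.

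**Figure D3:**
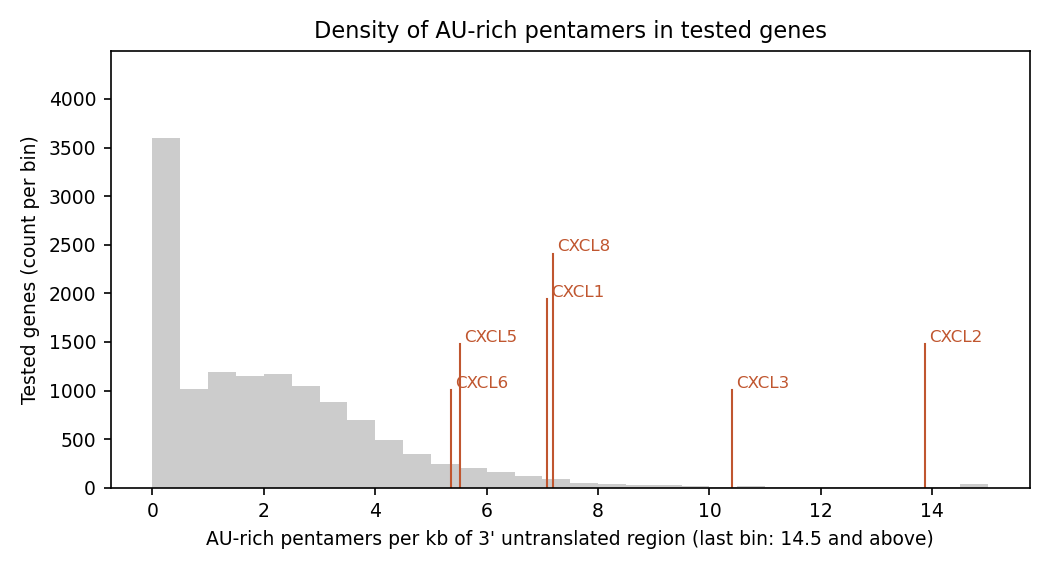
Grey bars count tested genes by the number of AU-rich pentamers per kilobase of 3' untranslated region, and orange lines mark the 6 measured chemokines, with heights that only keep the labels apart. The chemokines lie between 5.36 (CXCL6) and 13.9 (CXCL2), to the right of the median of 1.73.

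Between CXCL8 and CXCL2, the 6 expressed chemokines were the only genes with enough counts to test; of the tested genes outside, EREG rose and RASSF6 fell. The members span 359 kb of chromosome 4, from 73740506 to 74099293 (GENCODE release 29, GRCh38), with CXCL8, CXCL6, PF4V1 and CXCL1 on the plus strand and PF4, PPBP, CXCL5, CXCL3 and CXCL2 on the minus strand. The other 7 identifiers wholly between CXCL8 and CXCL2, mostly pseudogenes, had at most 1 count in any library. PPBPP1, a pseudogene inside the CXCL6 gene on the same strand, had 0 counts, as had UMLILO, a long noncoding RNA gene that precedes CXCL8. Within 500 kb on either side, 7 other genes were tested, of which 1 rose and 1 fell. Over all genes tested 10.3% were called higher and 12.9% lower, so nothing is read from this count. RASSF6, a RAS-association domain protein, fell from 83 and 92 counts to 37 and 36 (log2 fold change -1.33, SE 0.199, edgeR adjusted p 1.79e-05). EREG, an EGF receptor ligand, rose from 4400 and 5035 counts to 9896 and 9634 (log2 fold change 0.98, SE 0.060, edgeR adjusted p 8.89e-12). MTHFD2L, the first tested gene past CXCL2, had 154 and 200 counts against 194 and 182 (log2 fold change 0.018, SE 0.132, edgeR adjusted p 0.945), and AREG, ANKRD17, ANKRD17-DT and the antisense gene ENSG00000249942 were not called either.

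**Figure D4:**
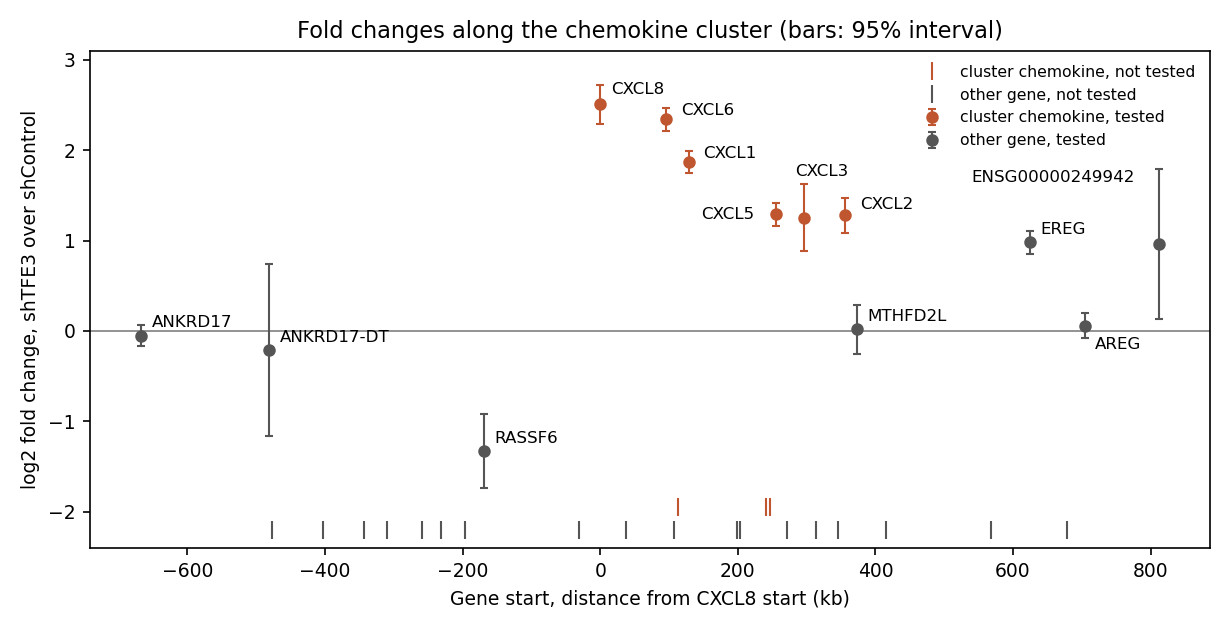
Log2 fold changes with 95% intervals against the distance of each gene's start from that of CXCL8 in kb, cluster chemokines in orange and other tested genes in grey; ticks at the bottom mark genes with too few counts to test. The 6 expressed chemokines lie between 1.25 and 2.51, RASSF6 at -1.33, EREG at 0.98 and MTHFD2L at 0.018.

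The receptors of these ligands were absent from the libraries. CXCR1 and CXCR2, which signal in neutrophils, and ACKR1, which binds chemokines without signalling, had 0 counts in all 4 libraries. Of the 8 other CXC ligands on the list, 2 were tested, and 1 of these, CXCL14, fell from 35 and 24 counts to 2 and 14 (log2 fold change -1.93, SE 0.445, edgeR adjusted p 0.00208); it did not pass without shTFE3 replicate 1 (-1.13, edgeR adjusted p 0.147). The interferon-induced ligands CXCL9, CXCL10 and CXCL11 had at most 1 count in any library. Of 27 CC, CX3C and XC ligands, 4 were tested and 2 rose: CCL20, a ligand of CCR6 (22 and 16 counts against 33 and 64), and CCL5 (17 and 20 against 48 and 26). Neither was firm: CCL20 did not pass without shTFE3 replicate 2 (edgeR adjusted p 0.224) or by DESeq2 (adjusted p 0.0515), and CCL5 did not pass with any 1 of the 4 libraries left out (0.0537 to 0.453). CX3CL1, the one abundant ligand outside the cluster, had 1775 and 1749 counts against 1876 and 1719 and was not called (log2 fold change -0.040, SE 0.062, edgeR adjusted p 0.701).

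Among the cytokines known to induce or accompany these chemokines, 7 of 16 were tested, 3 rose and 2 fell (median log2 fold change 0.23, against 0.0015 over all genes tested). IL6 rose from 484 and 493 counts to 1125 and 1129 (log2 fold change 1.14, SE 0.075, edgeR adjusted p 3.08e-11). LIF (0.29) and IL18 (0.21) rose and IL32 (-0.56) and IL11 (-1.03) fell by the same test. The inducers themselves were low or did not pass: IL1B had 418 and 473 counts against 555 and 545 (0.23, edgeR adjusted p 0.0518), IL1A 175 and 205 against 234 and 241 (0.25, 0.129), and TNF at most 1 count in any library. IL1B lay close to the threshold and was called higher with library totals alone (edgeR adjusted p 0.0251), with a filter of 50 counts (0.0406) and without shControl replicate 2 (0.0371), but not by DESeq2 (adjusted p 0.226) or without any other library (0.226 to 0.447). With 1 library left out, 1 or 2 of these cytokines rose and 0 or 1 fell, the fewest, 1 and 0, without shTFE3 replicate 2; LIF did not pass without shControl replicate 2, shTFE3 replicate 1 or shTFE3 replicate 2 (edgeR adjusted p 0.153, 0.116 and 0.164), and neither IL18 (0.0772 to 0.164) nor IL11 (0.11 to 0.227) passed with any 1 of the 4 libraries left out. IL32 did not pass without shTFE3 replicate 2 (edgeR adjusted p 0.0598). IL6 was called in each of these fits. Of 26 receptors and adaptors that relay interleukin 1, interleukin 17, tumour necrosis factor and bacterial signals, 24 were tested, 3 rose and 1 fell (median 0.033). IL1R1 had 1073 and 1188 counts against 1273 and 1194 and was not called, and the adaptor TRAF3IP2 rose by 0.40. TRAF3IP2 did not pass when shTFE3 replicate 1 or shTFE3 replicate 2 was left out (edgeR adjusted p 0.0591 and 0.0632), and it was the 1 that still rose when a control library was.

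All 18 NF-kB factors and inhibitors were tested; 6 rose and 2 fell, with a median of 0.075. Those with the smallest p were the inhibitors NFKBIA, which holds NF-kB in the cytosol (897 and 853 counts against 1433 and 1378, log2 fold change 0.61, SE 0.068, edgeR adjusted p 2.08e-07), and TNFAIP3, a deubiquitinase that ends signalling (176 and 201 against 305 and 313, 0.64). TNIP1, its partner, rose by 0.22, while the subunit NFKB1 fell by 0.26 on the log2 scale and the inhibitor NFKBIE by 0.40. The other 3 that rose were the subunit NFKB2 (log2 fold change 0.20, edgeR adjusted p 0.0239) and the nuclear co-regulators BCL3 (0.27, 0.0132) and NFKBIZ (0.20, 0.0130). Subunits and inhibitors were each called in both directions. RELA, the main activating subunit, had 1456 and 1395 counts against 1592 and 1620 and was not called (0.10, edgeR adjusted p 0.259). With 1 library left out the rises numbered 5 (shControl replicate 1), 2 (shControl replicate 2), 3 (shTFE3 replicate 1) and 2 (shTFE3 replicate 2). NFKBIA passed in each of these fits, TNFAIP3 did not without shTFE3 replicate 2 (edgeR adjusted p 0.0535), TNIP1 did not without shControl replicate 2 or shTFE3 replicate 2 (0.101 and 0.103), and NFKB1 did not without shTFE3 replicate 1 or 2 (0.0895 and 0.0653). BCL3 did not pass with any 1 library left out (0.0626 to 0.124), NFKB2 passed only without shControl replicate 1 (0.0442; otherwise 0.0543 to 0.283) and NFKBIZ only without shTFE3 replicate 2 (0.0443; otherwise 0.0892 to 0.153). NFKBIE did not pass without shTFE3 replicate 1 or 2 (0.151 and 0.0528).

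Of 14 AP-1 and C/EBP factors, which can act beside NF-kB at inflammatory genes, 13 were tested, 3 rose and 2 fell (median 0.10). CEBPD rose from 1655 and 1627 counts to 2459 and 2284 (log2 fold change 0.46), CEBPB by 0.32 and FOSL2 by 0.30. Among the 6 expressed chemokines the AP-1 letters above were found in CXCL8 alone and the C/EBP letters in CXCL2 alone. Each search used a single pattern without mismatch, so sites spelled otherwise were missed and the other promoters may hold them. JUN fell from 2519 and 2444 to 1948 and 1907 (-0.43, SE 0.059, edgeR adjusted p 4.51e-06). CEBPD, CEBPB, FOSL2 and JUN were called with any 1 of the 4 libraries left out. Of the 13 listed genes for mRNA decay and stability, which are not limited to AU-rich sites, all were tested, 2 rose and the other 11 were not called. ZC3H12A, the RNase regnase-1, rose from 859 and 704 counts to 2213 and 2195 (log2 fold change 1.43, SE 0.075, edgeR adjusted p 3.81e-13), and the decay factor ZFP36L2 from 278 and 302 to 462 and 423 (0.54). ZFP36, tristetraprolin, had 117 and 127 counts against 122 and 109, and the stabilising protein ELAVL1 1829 and 1810 against 1828 and 1959. Over all genes tested 23.3% were called in either direction, so the shares called in these lists, from 2 of 13 to 5 of 7, stand on both sides of it.

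**Figure D5:**
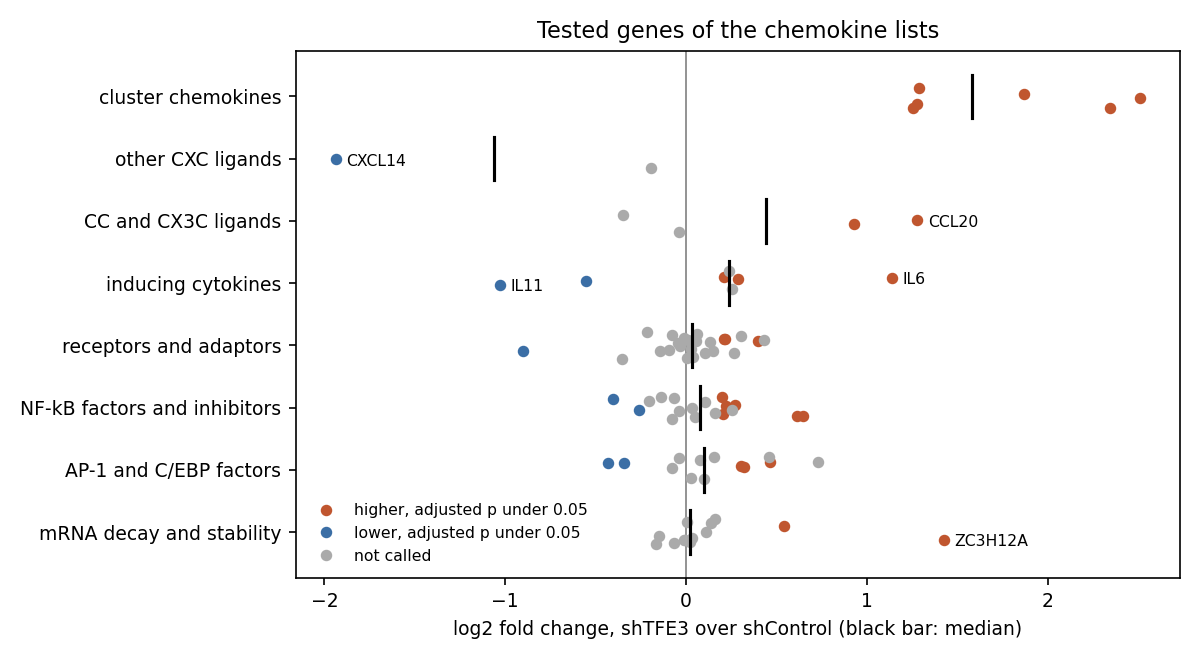
Each point is a tested gene of the lists, by its log2 fold change of shTFE3 over shControl, with black bars for list medians and colour for the edgeR call. The 6 cluster chemokines lie between 1.25 and 2.51; elsewhere only CCL20, IL6 and ZC3H12A exceed 1.

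Markers of other cells were mostly low, with exceptions in each list. Of 13 leukocyte markers 4 had more than 3 counts in any library, 6 had 0 throughout, and their summed level was 1.53 to 2.23 CPM in shControl and 1.84 to 2.30 in shTFE3. PTPRC, the pan-leukocyte gene, never exceeded 1 count, and the neutrophil genes S100A8, S100A9, FCGR3B and MPO had 0. Other myeloid genes of the list had counts: ITGAM 29 and 13 in shControl and 15 and 21 in shTFE3, ELANE 2 and 2 against 3 and 5, CSF1R 5 and 6 against 2 and 4, and CSF3R 1 in a single shTFE3 library. CD14 went with the arm, 2 and 2 counts against 10 and 11. Of 6 platelet markers GP9 and GP6 had 0 counts, and the list summed to 2.11 and 2.35 CPM in shControl, against 2.56 and 3.04 in shTFE3. The others had counts: GP1BA 9 and 17 in shControl against 15 and 22 in shTFE3, ITGA2B 21 and 10 against 23 and 22. TUBB1 had 6 and 13 against 7 and 9, and TREML1 at most 1 in any library. Of the 5 endothelial markers 2 had more than 3 counts in any library, with CDH5 at 0 and PECAM1 at 48 and 54 against 68 and 58 counts. The 5 endothelial markers summed to 2.93 and 3.23 CPM in shControl, against 4.12 and 3.48 in shTFE3. The 7 fibroblast markers, with LUM at 0, summed to 19.99 and 19.8 CPM in shControl, against 19.2 and 19.1 in shTFE3. Of these fibroblast markers 2 had more than 3 counts in any library. Those 2 were well above the limit of detection, PDGFRB with 197 and 193 counts against 232 and 220, and COL1A1 with 141 and 143 against 112 and 118. The part of these markers in the chemokine values was not tested.

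The genes most like the chemokines in their levels over the 4 libraries were TNFAIP6, TNFSF14, PTX3, ID1 and SAA2. Likeness was the distance between log2 CPM centred on each gene's mean and the mean centred profile of the 6 measured members, over genes averaging 100 counts or more. The distance was 0.085 for TNFAIP6, a hyaluronan-binding protein (69 and 71 counts against 261 and 271), 0.29 for TNFSF14, a TNF family ligand, 0.33 for the pentraxin PTX3, 0.35 for ID1 and 0.39 for the acute-phase gene SAA2. With 4 libraries in 2 arms, this ranking orders genes mainly by the size of their change.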

How the data were processed

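The submitters' processing notes name build hg38 and, as tools, STAR, featureCounts, Trim Galore and DESeq2, without versions. Annotation and strand setting: not given in the sources used here. The authors deposited raw counts per Ensembl gene, and a table of changed genes with the authors' mean normalized signal, log2 fold changes, test score, p-values and feature lengths.

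Groups came from the titles. Symbols came from a gene name table (61369 identifiers) and GENCODE release 29 (149). All counts were fitted with edgeR 4.0.16 in R 4.3.3: TMM factors, filterByExpr, the arm as only term, the quasi-likelihood test, and Benjamini-Hochberg adjustment at 0.05 over 15950 genes, holding 99.8% of counts. The procedure was tested on simulated counts. Depth was 17270180 to 17742519 counts, and 3 counts was taken as the limit of detection. The coefficient of variation between replicates beyond counting noise, from edgeR's common dispersion, was 4.16%. Observed values, which include that noise, ran from 1.95% (CXCL3 in shTFE3) to 11.4% (CXCL2 in shTFE3) among the measured members. SE is the absolute log2 fold change over the square root of the test statistic. Replicate pairs differed beyond sampling noise (chi-square per degree of freedom 2.12 and 3.61).

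The members and lists were chosen with earlier results of these data known. The rule named all 9 members, TFE3, up to 4 genes per list with the smallest p, tested genes within 500 kb of the cluster and the 5 genes most like the members; not all are reported, and further names were picked with their values in view. The alternatives comprised 2 normalizations, 2 filters, DESeq2 1.42.0, limma-voom (limma 3.58.1), a replicate term, similar copies summed and each library left out. Promoters came from RefSeq, transcripts from GENCODE release 29; biopython 1.88 aligned coding sequences.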

Additional observations from a re-analysis of the deposited data

How the results depend on the processing

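On the contrast they were chosen from, and so as a description only, all 6 measured chemokines kept their direction and their edgeR, DESeq2 or limma-voom call under each normalization, filter, test, replicate term and omitted library; log2 fold changes lay between 2.40 and 2.62 for CXCL8, 2.31 and 2.38 for CXCL6, 1.82 and 1.92 for CXCL1, 1.24 and 1.33 for CXCL5, 1.15 and 1.39 for CXCL2, and 1.21 and 1.30 for CXCL3. The number of genes called (3709, 1650 up and 2059 down) was 384 (104 up, 280 down) with no filter on low counts, 2157 (848 up, 1309 down) by DESeq2, and 1043 to 2514 (367 to 1008 up, 676 to 1507 down) with 1 library left out; library totals alone gave 2119 up and 1680 down. Of the pathway genes 27 were called, 5 with no filter, 16 by DESeq2 and 11 to 22 with 1 library left out. The causes were not tested, and the fits with 1 library left out also had fewer samples. With no filter, CEBPD, CEBPB and ZFP36L2 were not called (edgeR adjusted p 0.0509, 0.0673 and 0.0779). With the replicate block 3558 genes, the 6 chemokines and 29 pathway genes were called; same-numbered libraries did not deviate together (correlation -0.096 over genes averaging 100 counts or more), so the numbers were not taken to pair the samples. Fits with 1 library left out, or with the block, had 1 residual degree of freedom and prior degrees of freedom from 3.98 to infinite, so their counts are not on equal terms. CXCL3, at 44 to 115 counts, had the widest interval.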

Other observations

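Split by strand, the 6 measured chemokines did not overlap in fold, which was noticed after the values were seen, on the contrast they were chosen from. They do not form 2 tight sets, since the interval of CXCL1 lay apart from those on both sides. The 3 on the plus strand, CXCL8, CXCL6 and CXCL1, had log2 fold changes of 2.51, 2.34 and 1.87, in the order of their place along the chromosome. The 3 on the minus strand, CXCL5, CXCL3 and CXCL2, had 1.29, 1.25 and 1.28. The strands also differ in position: the minus-strand genes start 255 to 357 kb past CXCL8 and the plus-strand genes within 129 kb of it. Strand and place cannot be told apart, and neither was tested. The 2 pairs most alike in the printed promoter bases lay on different strands. CXCL5 and CXCL6, with 67 of 70 bases in common, had folds of 2.44 and 5.07, and CXCL1 and CXCL3, with 63 of 70, had 3.65 and 2.38. CXCL1 and CXCL2, also on different strands, shared 56 of 70 and had 3.65 and 2.42. CXCL3 and CXCL2, both on the minus strand, shared 52 of 70 and had 2.38 and 2.42. Bases were compared by position without gaps. The part of the promoters in the folds was not tested.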
